A study of Mus musculus with 32 samples.

Results

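Messenger RNA of acute-phase and metal-binding genes was measured in kidneys of mice with polycystic kidney disease (PKD). The group was a fixed list of 9 genes, chosen by name among the 53700 genes of the count table. Earlier results of these data were known when it was chosen. It held the fibrinogen chains *Fga*, *Fgb* and *Fgg*, the acute-phase proteins *Saa3* and *Hp*, the copper and iron enzymes *Cp* and *Steap4*, and the metallothioneins *Mt1* and *Mt2*. Of these, 8 passed the filter on low counts (CPM is the read count scaled to a common library total, and its log2 had to exceed 1 in 25% or more of the kidneys), as did 13948 genes in all, and *Saa3* did not. All kidneys came from male C57BL/6 mice, frozen whole-tissue samples, 1 library per kidney. In the iKspCre-Pkd1del line, a Cre recombinase that tamoxifen switches on and that the tubule promoter of Ksp-cadherin drives removes exons 2 to 11 of *Pkd1* from tubular cells, so other kidney cells keep the gene. The 12 PKD mice had been given tamoxifen (150 mg/kg) by mouth, ate normal chow and were 95 days old. The 12 PKD + Salsalate mice had the same deletion and age and ate chow with salsalate (2.5 g/kg), a salicylate prodrug, for 2 weeks from day 81. The 8 wildtype kidneys came from mice that had not been given tamoxifen and were labelled as 109 days old, so age, tamoxifen and genotype cannot be told apart in a comparison with wildtype. The PKD mice had been selected by the study for mild cysts.

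The acute-phase response is a change in the proteins that the liver secretes into plasma during inflammation or injury. Cytokines of the interleukin-6 family drive much of it through the receptor chain gp130 and the transcription factor STAT3. Fibrinogen is a plasma protein built from alpha, beta and gamma chains, each made by its own gene, and thrombin turns it into the fibrin of a clot. Injured tubular cells of the kidney are also known to make fibrinogen. Haptoglobin (*Hp*) binds free haemoglobin, ceruloplasmin (*Cp*) carries copper and oxidises iron, and STEAP4 reduces iron and copper at membranes. Metallothioneins are small cysteine-rich proteins that bind zinc and copper, and their genes respond to metals through the factor MTF1.

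Between 11193136 and 109807664 reads per kidney were counted on genes. *Pkd1* itself, counted over the whole gene with the exons that remain, was higher in PKD kidneys, with 70.8 to 113 CPM in 11 kidneys against 53.2 to 86.5 in 8 wildtype kidneys (log2 fold change 0.44, edgeR adjusted p = 0.0012; adjusted p = 0.171 against the 3 wildtype libraries without the name ending described next). The names of 5 wildtype libraries, and of no PKD library, end in R. Fits against each set of wildtype libraries are therefore given beside the comparisons. The kidney label was checked on 6 proximal tubule markers (summed to 6340 to 12800 CPM per kidney) and 6 distal nephron and collecting duct markers (3540 to 5720 CPM). The 2 wildtype sets did not overlap in either sum. The proximal sum was 6340 to 8600 CPM in the 5 libraries ending in R and 11100 to 12800 CPM in the 3 others. The distal sum was 3620 to 4680 CPM in the 5 and 5320 to 5720 CPM in the 3. PKD replicate 10 stood apart: 15 liver markers summed to 4340 CPM in it, against 54.7 to 87.6 CPM in the other 11 PKD kidneys, and albumin (*Alb*) was at 1930 CPM against 1.77 to 3.61. It was left out of the comparisons below, which used 31 kidneys.

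The promoters of the 3 fibrinogen genes and of the neighbouring metallothionein genes are shown. They were picked because, against all 8 wildtype kidneys, the former changed together and the latter parted. Against the 3 wildtype libraries not ending in R, *Fga*, *Mt1* and *Mt2* were not called. Each line gives the 250 bases before the RefSeq start of the gene, 5′ to 3′ on its own strand, on GRCm38.p6, a different build from that of the counts. The RefSeq starts need not be those of the GENCODE gene positions given below. Their spacing differs for *Fga* and *Mt2*, whose windows may lie partly or wholly inside the GENCODE gene. The places are chr3:83025903-83026152 on the plus strand for *Fga*, chr3:83049864-83050113 on the minus strand for *Fgb*, chr3:83007474-83007723 on the plus strand for *Fgg*, chr8:94178839-94179088 on the plus strand for *Mt1* and chr8:94172368-94172617 on the plus strand for *Mt2*. Capitals mark matches, on either strand, to TTCNNNGAA (the letters STAT factors bind), CTGGGAA (a core of interleukin-6 response elements) and TGCGCNC or TGCACNC (cores of metal response elements).
Fga: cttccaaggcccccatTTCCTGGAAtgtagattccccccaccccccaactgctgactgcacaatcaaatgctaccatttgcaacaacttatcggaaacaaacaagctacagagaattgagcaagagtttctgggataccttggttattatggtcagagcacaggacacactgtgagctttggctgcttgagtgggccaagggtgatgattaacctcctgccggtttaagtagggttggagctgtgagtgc
Fgb: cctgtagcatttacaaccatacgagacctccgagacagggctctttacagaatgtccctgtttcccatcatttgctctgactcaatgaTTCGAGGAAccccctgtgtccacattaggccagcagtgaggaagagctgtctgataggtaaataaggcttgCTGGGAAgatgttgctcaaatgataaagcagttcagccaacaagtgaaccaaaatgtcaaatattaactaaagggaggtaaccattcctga
Fgg: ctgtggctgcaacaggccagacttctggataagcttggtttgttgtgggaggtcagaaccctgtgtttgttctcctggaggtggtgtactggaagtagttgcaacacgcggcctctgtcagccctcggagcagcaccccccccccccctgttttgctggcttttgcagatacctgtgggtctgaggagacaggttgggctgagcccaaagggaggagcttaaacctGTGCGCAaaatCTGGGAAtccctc
Mt1: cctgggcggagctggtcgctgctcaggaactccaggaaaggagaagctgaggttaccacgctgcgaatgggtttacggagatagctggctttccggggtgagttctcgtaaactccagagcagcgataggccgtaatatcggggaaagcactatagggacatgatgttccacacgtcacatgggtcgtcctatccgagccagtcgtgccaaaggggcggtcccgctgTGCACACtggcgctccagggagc
Mt2: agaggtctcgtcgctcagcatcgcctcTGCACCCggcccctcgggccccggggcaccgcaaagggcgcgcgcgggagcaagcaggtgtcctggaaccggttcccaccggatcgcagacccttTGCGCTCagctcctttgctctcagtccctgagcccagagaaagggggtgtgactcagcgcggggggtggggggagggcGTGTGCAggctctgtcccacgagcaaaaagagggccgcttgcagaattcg

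A window was found for 8 of the 9 genes, all but *Hp*. The *Fga* window held TTCNNNGAA as TTCCTGGAA, 234 bases before the start. The *Fgb* window held it as TTCGAGGAA, 162 bases before the start, and also held CTGGGAA. The *Fgg* window held CTGGGAA 13 bases before the start, and a TGCGCNC match on the opposite strand 24 bases before the start. The *Steap4* window held both TTCNNNGAA and CTGGGAA, and the *Saa3* and *Cp* windows held none of the 4 motifs. *Mt1* had 1 match to the metal response cores and *Mt2* had 3. With the 50 bases after the RefSeq start included (300-base windows), these became 3 and 4, so the counts depend on where the window ends. Among all 32851 windows of 250 bases in the table, 7.02% held TTCNNNGAA, 9.1% held CTGGGAA and 21.4% held either metal response core. A match describes letters and is not a binding site.

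**Figure D1:**
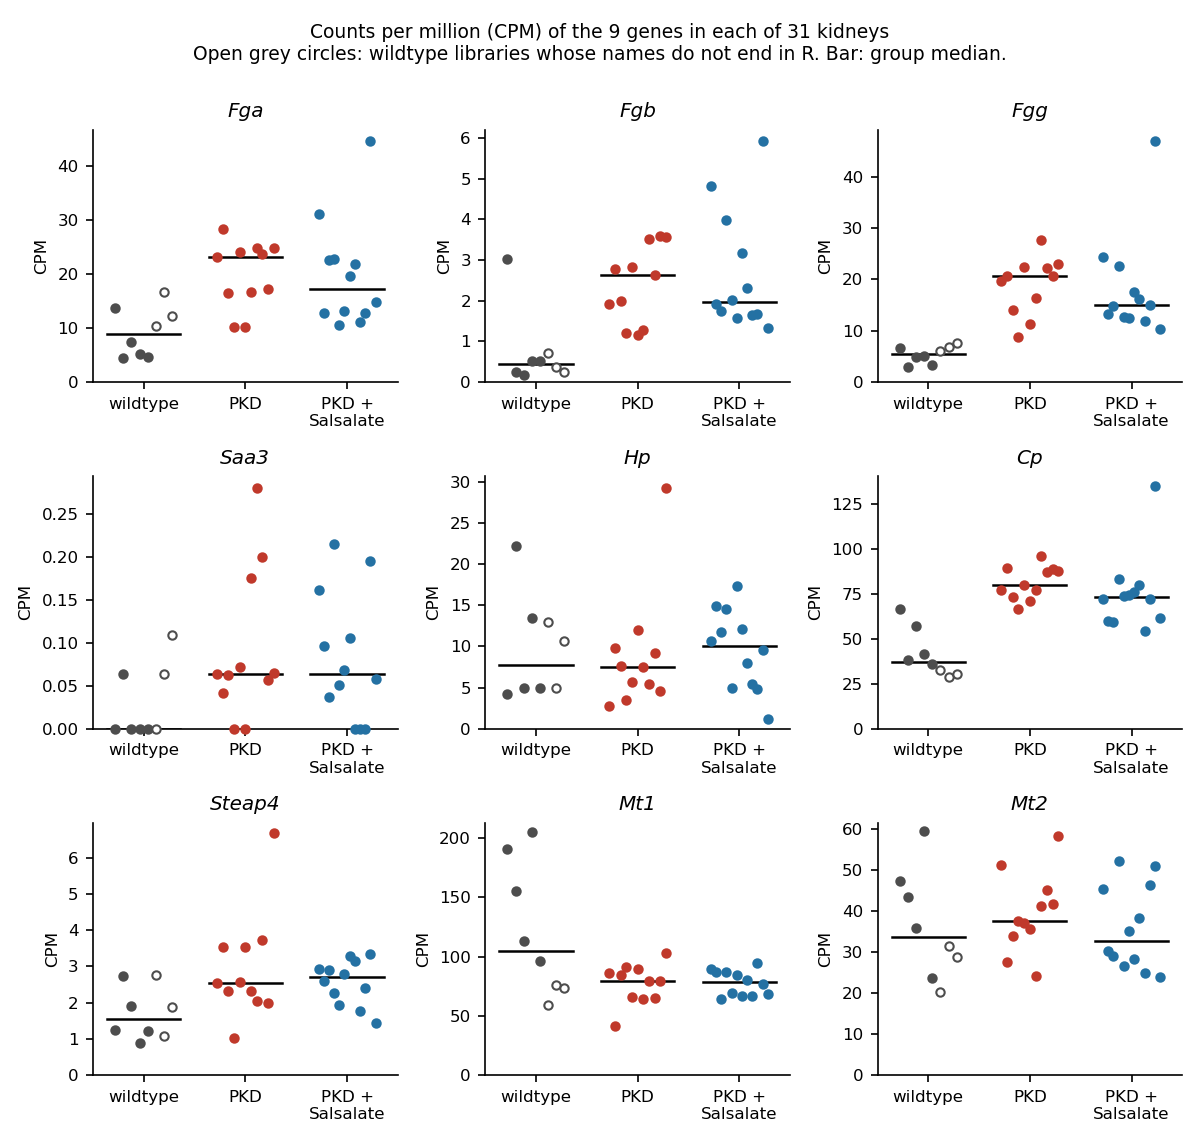
CPM (TMM-scaled) of each gene on a linear axis in 8 wildtype, 11 PKD and 12 PKD + Salsalate kidneys, 1 point per kidney, with the group median as a bar. *Fgg* of every PKD kidney lies above the highest wildtype kidney (7.66 CPM), and *Mt1* of the 5 wildtype libraries ending in R (filled grey) lies at 96 CPM or above.

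The fibrinogen chains rose in PKD kidneys. The genes lie side by side on chromosome 3 of GRCm39: *Fgg* (ENSMUSG00000033860) from 82915030 to 82922363 and *Fga* (ENSMUSG00000028001) from 82933383 to 82940934 on the plus strand, and *Fgb* (ENSMUSG00000033831) from 82947448 to 82957170 on the minus strand. For *Fgg*, the gamma chain, the lowest, median and highest kidneys had 3.05, 5.55 and 7.66 CPM in the wildtype group, 8.76, 20.6 and 27.7 CPM in the PKD group and 10.3, 15 and 46.9 CPM in the PKD + Salsalate group. Neither PKD group overlapped the wildtype group. Among the 13948 genes tested, 5.48% lay higher without overlap in PKD kidneys and 4.47% in PKD + Salsalate kidneys. PKD kidneys held 3.44-fold more *Fgg* than wildtype kidneys (log2 fold change 1.78 ± 0.26 SE, adjusted p = 1.11e-06, edgeR's quasi-likelihood test with Benjamini-Hochberg adjustment over all genes tested).

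For *Fga*, the alpha chain, the same 3 values were 4.51, 8.89 and 16.7 CPM in wildtype, 10.2, 23.2 and 28.2 CPM in PKD and 10.6, 17.3 and 44.6 CPM in PKD + Salsalate kidneys. All 11 PKD kidneys were above the wildtype median and 7 of them above every wildtype kidney, so the groups overlapped in part. *Fga* was 2.14-fold higher in PKD (log2 fold change 1.09 ± 0.28, adjusted p = 0.0016). For *Fgb*, the beta chain, the values were 0.173, 0.451 and 3.03 CPM in wildtype, 1.15, 2.63 and 3.58 CPM in PKD and 1.34, 1.97 and 5.91 CPM in PKD + Salsalate kidneys. Wildtype replicate 1 alone reached 3.03 CPM (32 counts), and the other 7 wildtype kidneys lay at or under 0.727 CPM, below every PKD kidney. *Fgb* was 3.69-fold higher in PKD (log2 fold change 1.88 ± 0.41, adjusted p = 0.000342). Apart from wildtype replicate 1, no wildtype kidney reached the filter level, so *Fgb* passed the filter mainly through the PKD groups. In the edgeR fit without the filter its log2 fold change was 1.9 (adjusted p = 0.000269). Without wildtype replicate 1 its log2 fold change was 2.56, and without it the log2 fold change of PKD + Salsalate against wildtype was 2.7 in place of 2.02.

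The 3 chains were not present in equal numbers of reads. Per kilobase of transcript, PKD kidneys held 10 ± 2.98 CPM of *Fgg*, 7.69 ± 2.37 CPM of *Fga* and 0.632 ± 0.249 CPM of *Fgb* (SD, n = 11). The beta chain thus lay far below its partners in kidney, with a ranking that no PKD kidney broke. The count ratio of *Fgb* to *Fgg* was 0.0783 to 0.174 in the 11 PKD kidneys (median 0.127) and 0.111 to 0.197 in the 12 PKD + Salsalate kidneys (median 0.14). In PKD replicate 10, with its liver markers, that ratio was 1.12, with 3575 counts of *Fgb* against 3184 of *Fgg*. Among wildtype kidneys the ratio ran from 0.0332 to 0.457 on 2 to 32 counts of *Fgb*, and PKD and wildtype did not differ in it beyond the spread (exact permutation p = 0.271, adjusted 0.31 over 8 tests of chain ratios, 2-sided). Wildtype replicate 1 had the ratio of 0.457. Its *Alb* (5.31 CPM) lay inside the range of the other wildtype kidneys (3.45 to 11.4 CPM), its liver markers summed to 60.1 CPM, the lowest of the group, and its *Fabp1* (1.23 CPM) lay above the others (0.0635 to 0.409 CPM).

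The balance between the alpha and gamma chains did shift. The count ratio of *Fga* to *Fgg* was 1.01 to 2.44 in wildtype kidneys (median 1.56), 0.837 to 1.36 in PKD kidneys (median 1.06) and 0.847 to 1.51 in PKD + Salsalate kidneys (median 1.03). The groups overlapped, but all kidneys of both PKD groups lay below the wildtype median. On the log2 scale the mean ratio differed by -0.6 between PKD and wildtype (2-sided exact permutation test over 75582 splits, p = 0.000304, adjusted p = 0.00243 over the 8 tests). Set against the 5 R-named wildtype libraries alone, the difference was -0.46 (exact permutation p = 0.00527, adjusted 0.0105) and -0.84 against the 3 others (exact permutation p = 0.00275, adjusted 0.00733). It was -0.56 between PKD + Salsalate and wildtype (exact permutation p = 0.00184, adjusted 0.00733). Between the PKD groups it was 0.04 (permutation p = 0.691, adjusted 0.691). A ratio of 2 genes within a kidney does not depend on how libraries are scaled. These ratio tests were chosen after the values were seen.

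For the acute-phase proteins *Hp* and *Saa3* no difference from wildtype passed the test. *Hp* (ENSMUSG00000031722, chromosome 8, 110301759 to 110305804, minus strand) had 4.17, 7.77 and 22.2 CPM in the lowest, median and highest wildtype kidneys, 2.76, 7.46 and 29.3 CPM in PKD and 1.16, 10.1 and 17.3 CPM in PKD + Salsalate kidneys. The groups overlapped almost completely. From wildtype to PKD, *Hp* had a log2 fold change of -0.18 (95% confidence interval -0.98 to 0.63, adjusted p = 0.733). *Hp* moved with adipose markers. Wildtype replicate 2 and PKD replicate 12, the highest of their groups for *Hp*, had the highest sums of 7 adipose tissue markers in their groups (417 and 215 CPM), and PKD + Salsalate replicate 12, with the lowest *Hp* of all (1.16 CPM), had the lowest sum (8.07 CPM). The highest sum among PKD + Salsalate kidneys (254 CPM) was not in the kidney with the most *Hp* of that group. The sum ran from 36.5 to 417 CPM in wildtype, 12.5 to 215 CPM in PKD and 8.07 to 254 CPM in PKD + Salsalate kidneys, with 1 of the 7 markers at 0 in some PKD kidney. Its part in the *Hp* values was not tested.

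*Saa3* (ENSMUSG00000040026, chromosome 7, 46361422 to 46365576, minus strand) encodes a serum amyloid A protein that is made outside the liver. It gave 0 to 3 counts per kidney in the wildtype group (5 counts in all, 5 of 8 kidneys at 0), 0 to 7 counts in the PKD group (26 counts, 2 of 11 at 0) and 0 to 6 counts in the PKD + Salsalate group (24 counts, 3 of 12 at 0). A count of 0 in a single wildtype library allows up to 0.106 to 0.266 CPM, by counting error alone, and the highest kidney of all reached 0.28 CPM. Fitted without the filter, its log2 fold change in PKD was 1.28 ± 0.69 (adjusted p = 0.196), so no difference was detectable at this depth. Its relatives *Saa1* and *Saa2* were also below the filter. *Saa1* gave 1 count in all 8 wildtype kidneys and 58 in 11 PKD kidneys, and the unfiltered edgeR fit called it higher (adjusted p = 6.57e-05). *Saa2* gave 0 and 4 counts (adjusted p = 0.21 in that fit). No fold is given for either, since so few wildtype counts leave it to the prior count of the fit.

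The copper and iron enzymes rose. *Cp* (ENSMUSG00000003617, chromosome 3, 20011090 to 20063930, plus strand) had 28.8, 37.1 and 66.7 CPM in the lowest, median and highest wildtype kidneys, 66.4, 79.7 and 96.2 CPM in PKD and 54.1, 72.9 and 135 CPM in PKD + Salsalate kidneys. Of the 11 PKD kidneys, 10 lay above every wildtype kidney, and the remaining one (66.4 CPM) lay just below wildtype replicate 1. PKD kidneys held 1.97-fold more *Cp* (log2 fold change 0.98 ± 0.15, adjusted p = 2.37e-06). It overlaps *Hps3* on the other strand, and the counting used the strand. *Steap4* (ENSMUSG00000012428, chromosome 5, 8010260 to 8032214, plus strand) was scarce, with 0.893, 1.56 and 2.77 CPM in wildtype, 1.02, 2.54 and 6.68 CPM in PKD and 1.45, 2.69 and 3.34 CPM in PKD + Salsalate kidneys. The groups overlapped, with 10 of 11 PKD kidneys above the wildtype median and 4 above every wildtype kidney. It was 1.68-fold higher in PKD (log2 fold change 0.75 ± 0.25, adjusted p = 0.0132), and PKD replicate 12, the highest for *Hp*, was also the highest here.

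The metallothionein genes parted in the fit against all 8 wildtype kidneys. *Mt2* (ENSMUSG00000031762, 94898819 to 94900207) and *Mt1* (ENSMUSG00000031765, 94905710 to 94906955) follow each other on the plus strand of chromosome 8 and were the most abundant of the 9 genes per kilobase of transcript (101 ± 22 CPM for *Mt1* and 52.7 ± 13.1 CPM for *Mt2* in PKD kidneys, SD, n = 11). *Mt1* had 58.9, 105 and 205 CPM in the lowest, median and highest wildtype kidneys, 41.8, 79.4 and 103 CPM in PKD and 64.1, 78.3 and 94.7 CPM in PKD + Salsalate kidneys. No kidney of either PKD group reached the wildtype median. *Mt1* was 0.637 times its wildtype level in PKD (log2 fold change -0.65 ± 0.18, adjusted p = 0.00316). *Mt2* had 20.3, 33.7 and 59.6 CPM in wildtype, 24.2, 37.5 and 58.2 CPM in PKD and 23.9, 32.7 and 52.1 CPM in PKD + Salsalate kidneys, with the groups overlapping throughout (log2 fold change 0.13, 95% confidence interval -0.25 to 0.5, adjusted p = 0.598).

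The fall of *Mt1* rested on the wildtype libraries ending in R. Those 5 had 96 to 205 CPM and the 3 others 58.9 to 76.2 CPM, without overlap (log2 difference 1.08, exact permutation p = 0.0357, adjusted p = 0.179 over 8 genes). Against the 5, the log2 fold change in PKD was -0.99 (adjusted p = 2.1e-06). Against the 3 it was 0.14 (adjusted p = 0.52), so both the direction and the call were lost. With each wildtype set, *Mt2* was at -0.09 (adjusted p = 0.706) and 0.55 (adjusted p = 0.0637). What the name ending stands for is not given in the sources used here.

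**Figure D2:**
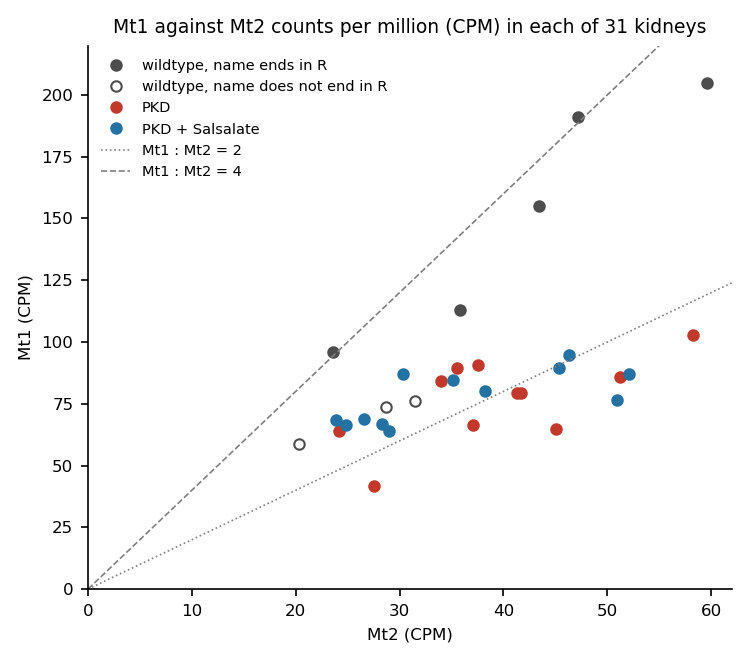
*Mt1* (vertical axis) against *Mt2* (horizontal axis) in CPM, 1 point per kidney, with lines at ratios of 2 (dotted) and 4 (dashed). The 5 wildtype libraries ending in R, with count ratios of 3.16 to 4.07, lie nearest the dashed line, above all PKD kidneys (1.44 to 2.64).

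The ratio of *Mt1* to *Mt2* counts was lower in PKD kidneys. It was 2.42 to 4.07 in wildtype kidneys (median 3.3), 1.44 to 2.64 in PKD kidneys (median 1.9) and 1.5 to 2.87 in PKD + Salsalate kidneys (median 2.29). The ranges of wildtype and PKD met only between 2.42 and 2.64. The mean log2 ratio differed by -0.71 between PKD and wildtype (2-sided exact permutation test over 75582 splits, p = 0.000212, adjusted p = 0.000687 over 6 tests of this ratio). Against the 3 wildtype libraries not ending in R the difference was -0.41 and did not pass the threshold (exact permutation p = 0.0604, adjusted 0.0725). The wildtype sets themselves differed by 0.48 (exact permutation p = 0.0179, the smallest that 56 splits allow, adjusted 0.0268). PKD + Salsalate and PKD kidneys differed by 0.18 (permutation p = 0.158, adjusted 0.158). This ratio too was chosen after the values were seen.

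Across the list, 6 of the 8 genes tested changed between PKD and wildtype, 5 of them higher (*Fga*, *Fgb*, *Fgg*, *Cp*, *Steap4*) and *Mt1* lower. Among all 13948 genes, 48.0% were called in this comparison, 23.4% higher and 24.6% lower. Since the list was chosen with earlier results of these data known, the shares beside it are a description and not a test. Against the 3 wildtype libraries not ending in R alone, 3 of the 8 were called (*Fgb*, *Fgg* and *Cp*), and *Fga*, *Steap4* and *Mt1* were not. The median log2 fold change was 0.86 over the 8 genes and -0.01 over all genes. Between PKD + Salsalate and wildtype 5 of 8 were called (*Fga*, *Fgb*, *Fgg* and *Cp* higher, *Mt1* lower), against 44.8% of all genes. *Steap4* missed the threshold there by edgeR (log2 fold change 0.56 ± 0.24, adjusted p = 0.062), but passed it by DESeq2 (0.56, adjusted p = 0.0483), by limma-voom (0.63, adjusted p = 0.0382) and by edgeR with only these 2 groups fitted (0.56, adjusted p = 0.0323). Both comparisons used the same wildtype kidneys. The median log2 fold change of the 8 genes was 0.71 in the latter.

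**Figure D3:**
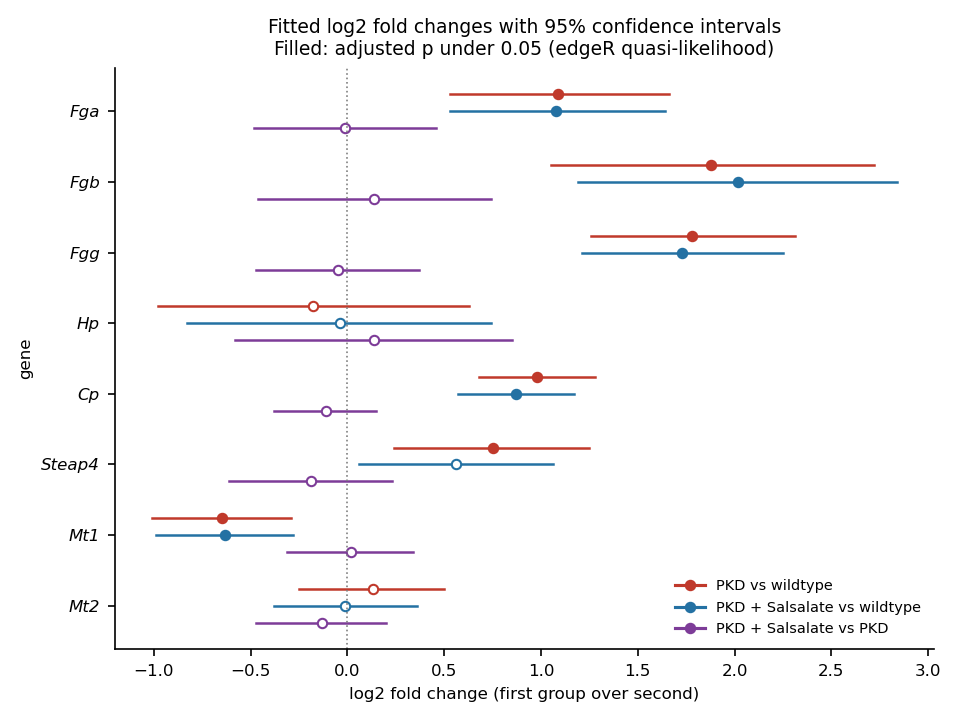
Log2 fold changes (horizontal axis) of the 8 genes tested, with 95% confidence intervals, for PKD against wildtype, PKD + Salsalate against wildtype and PKD + Salsalate against PKD. The 3 fibrinogen chains and *Cp* lie to the right of 0 in both comparisons with wildtype, and all 8 intervals of PKD + Salsalate against PKD cross 0.

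No difference between the PKD groups passed the test for any of the 8 genes. Between PKD + Salsalate and PKD kidneys 0 of 8 were called by edgeR, where 0.516% of all genes (72) were called. An unadjusted p under 0.05 was found for 0 of the 8 and for 1316 of all 13948 genes. DESeq2 and limma-voom called 0 of the 8 as well. The intervals were narrowest for *Cp* (log2 fold change -0.11, 95% confidence interval -0.38 to 0.15), *Mt1* (0.02, -0.31 to 0.34) and *Mt2* (-0.13, -0.47 to 0.2). They were -0.47 to 0.37 for *Fgg*, -0.48 to 0.46 for *Fga* and -0.61 to 0.23 for *Steap4*. For the low or variable *Fgb* (-0.46 to 0.74) and *Hp* (-0.58 to 0.85) larger differences in either direction remain inside the interval. The medians of all 3 fibrinogen chains and of *Cp* were lower in the PKD + Salsalate group than in the PKD group, while PKD + Salsalate replicate 11 held the highest value of any of the 31 kidneys for *Fga*, *Fgb*, *Fgg* and *Cp*. That kidney also had the highest sum of 7 injured tubule markers (4220 CPM). Without it the log2 fold changes were -0.19 for *Fga*, -0.04 for *Fgb*, -0.28 for *Fgg* and -0.22 for *Cp*, and none was called.

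**Figure D4:**
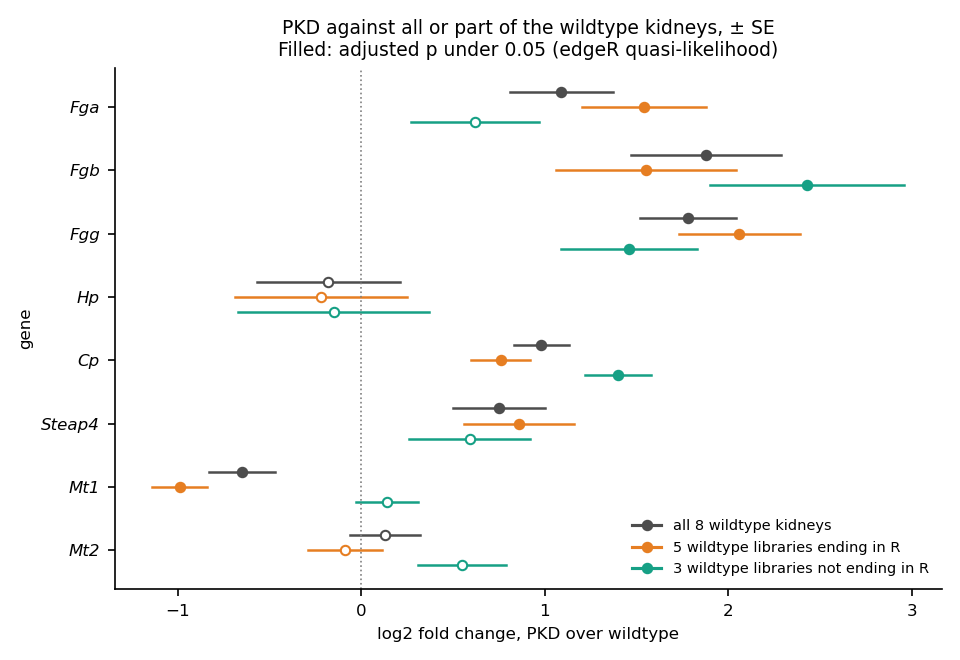
Log2 fold change of PKD over wildtype (horizontal axis, ± SE) for the 8 genes, fitted against all 8 wildtype kidneys, the 5 whose library names end in R, or the 3 others. *Fgb*, *Fgg* and *Cp* are called (filled points) in all 3 fits, and *Mt1* lies on opposite sides of 0 in the fits against the 5 and the 3.

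Within the wildtype sets, *Fgb*, *Fgg* and *Cp* held. *Fgg* had a log2 fold change of 2.06 with the 5 R-named libraries as reference (adjusted p = 4.31e-06), and of 1.46 with the 3 others (adjusted p = 0.00218). *Fgb* was at 1.55 (adjusted p = 0.00733) and 2.43 (adjusted p = 0.000566), and *Cp* at 0.76 (adjusted p = 0.000135) and 1.4 (adjusted p = 8.23e-07). *Fga* and *Steap4* were called against the 5 but not against the 3. *Fga* went from 1.54 (adjusted p = 0.000246) to 0.62 (adjusted p = 0.154), and *Steap4* from 0.86 (adjusted p = 0.0149) to 0.59 (adjusted p = 0.157). Their direction was the same in both.

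Among kidneys with the same treatment, fibrinogen and ceruloplasmin moved together. Over the 11 PKD kidneys, log2 CPM of *Fgg* and *Cp* had a Pearson r of 0.91 (permutation p = 5e-05, adjusted 0.0014 over 56 relations; Spearman rho 0.85) and 0.84 without the 2 kidneys farthest from the median of *Fgg*. *Fga* and *Fgg* had r of 0.91 (permutation p = 0.00042, adjusted 0.00488; rho 0.89), and 0.73 without 2 kidneys. *Fgb* and *Fgg* had r of 0.86 (permutation p = 0.00061, adjusted 0.00488; rho 0.81), and 0.75 without 2. In the 12 PKD + Salsalate kidneys the same 3 pairs had r of 0.85 (permutation p = 0.00249, adjusted 0.013; rho 0.63), 0.89 (permutation p = 9e-05, adjusted 0.00168; rho 0.78) and 0.93 (permutation p = 1e-05, the smallest these permutations give, adjusted 0.00056; rho 0.92), and 0.64, 0.71 and 0.91 without 2 kidneys.

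*Hp* and *Steap4* formed another pair. Their r was 0.84 in PKD kidneys (permutation p = 0.00241, adjusted 0.013; rho 0.77; 0.91 without 2 kidneys) and 0.76 in PKD + Salsalate kidneys (permutation p = 0.00442, adjusted 0.0178; rho 0.41; 0.53 without 2). *Mt1* and *Mt2* had r of 0.63 in PKD kidneys (permutation p = 0.0394, adjusted 0.1; rho 0.51; 0.31 without 2) and 0.74 in PKD + Salsalate kidneys (permutation p = 0.00894, adjusted 0.0313; rho 0.73; 0.71 without 2). *Mt2* and *Fgg* had r of 0.31 in PKD kidneys (permutation p = 0.345, adjusted 0.503; rho 0.43; 0.47 without 2) and 0.76 in PKD + Salsalate kidneys (permutation p = 0.00084, adjusted 0.00588; rho 0.78; 0.73 without 2), a difference between the groups that was not tested. In all, 7 of 28 pairs in PKD and 11 of 28 in PKD + Salsalate kidneys had an adjusted p under 0.05 by Pearson r, all positive. The share among other gene pairs was not computed. By Spearman rho in PKD + Salsalate kidneys, *Fgg* and *Cp* (adjusted permutation p = 0.112) and *Hp* and *Steap4* (0.372) did not pass. *Fga* and *Fgg* (0.0311) and *Fgb* and *Fgg* (0.00224) did.

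The genes outside the list whose levels followed a member most closely differed between members. The likeness was the Pearson r of log2 CPM over the 23 kidneys of both PKD groups after each group's mean was subtracted, and is given as a description. For *Hp* these were *Cfd* (r 0.94) and *Plin1* (r 0.92), both fat cell genes of the adipose list. For *Fgg* they were *Mcam* (r 0.91) and *Lcn2* (r 0.89), the latter the tubular injury marker lipocalin-2. For *Mt2* they were *Lif* (r 0.87), a cytokine of the interleukin-6 family, and *Tnfrsf12a* (r 0.86). *Fga* followed *Cdh5* (r 0.92) and *Slc13a1* (r 0.91), *Fgb* followed *Fbln2* (r 0.88) and *Pxdn* (r 0.85), and *Cp* followed *Akap12* and *Cmtm3* (r 0.94 each). *Steap4* followed *Ntrk2* (r 0.85) and *Pde3b* (r 0.84), and *Mt1* followed *Ppp1r14b* and *Gm13785* (r 0.84 each).

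**Figure D5:**
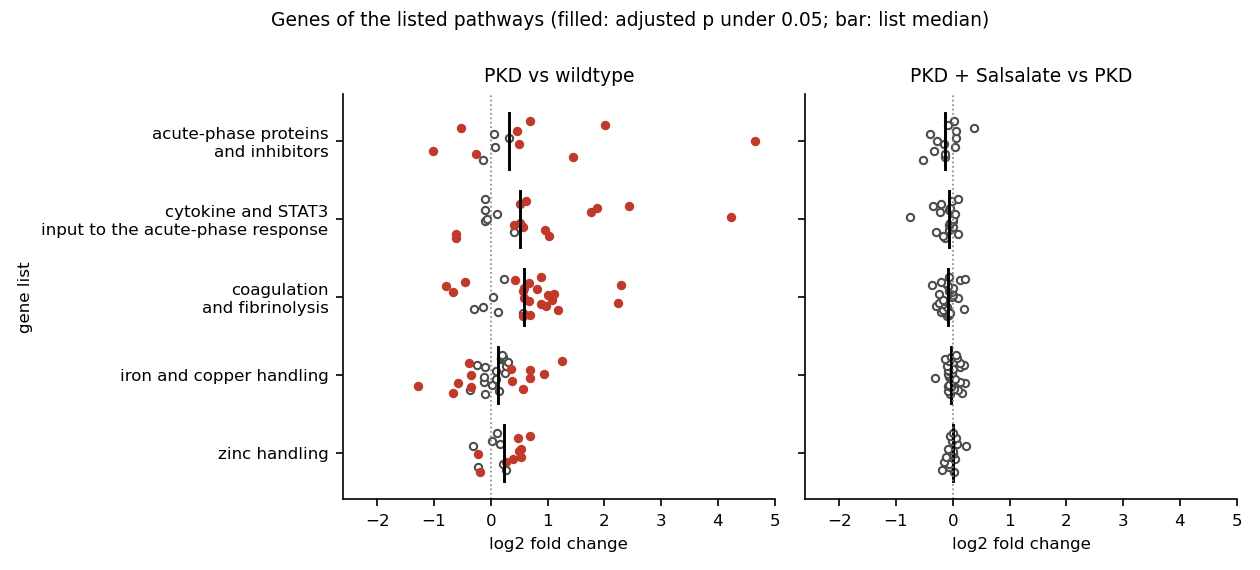
Log2 fold changes (horizontal axis) of the genes tested in 5 pathway lists (rows), for PKD against wildtype on the left and PKD + Salsalate against PKD on the right, 1 point per gene, with the list median as a bar. Points past the threshold (filled) run up to 4.65 (*Lcn2*) on the left, and there are none on the right.

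Around these genes, most of the cytokine input to the acute-phase response that changed was higher in PKD kidneys. Of 24 listed genes, 19 were tested, 11 rose and 2 fell (48.0% of all genes were called), and the median log2 fold change was 0.51. *Lif* had 0.0948 to 0.409 CPM in wildtype and 2.86 to 8.43 CPM in PKD kidneys, without overlap (log2 fold change 4.23 ± 0.32, adjusted p = 4.56e-12). It passed the filter only through the PKD groups, and was at 4.24 in the edgeR fit without the filter (adjusted p = 4.32e-13). *Socs3*, the feedback inhibitor of STAT3 signalling, rose by 2.43 on the log2 scale and *Osmr*, the oncostatin M receptor, by 1.88, and each rose against both wildtype sets. *Il11ra1*, the interleukin-11 receptor, fell by 0.61 (adjusted p = 3.45e-06). *Cebpb*, a transcription factor of the response, fell by 0.61 (adjusted p = 0.0105) but was at -0.32 (adjusted p = 0.336) against the 3 wildtype libraries not ending in R. *Il6* was below the filter, with 3 counts in all wildtype kidneys and 68 in the 11 PKD kidneys, and the unfiltered edgeR fit called it higher (adjusted p = 0.000181).

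Of 25 other acute-phase proteins and inhibitors, 13 were tested, 6 rose and 3 fell, where 23.4% of all genes rose and 24.6% fell. *Lcn2* had 1.22 to 2.45 CPM in wildtype and 25.8 to 57.4 CPM in PKD kidneys (log2 fold change 4.65 ± 0.27, adjusted p = 3.18e-14). *Serpina3n*, a protease inhibitor, rose by 2.02 and *Cd14*, a receptor for bacterial lipopolysaccharide, by 1.44. *Serpina3n* had at most 1.09 CPM in wildtype kidneys and passed the filter mainly through the PKD groups, which favours a rise. In the edgeR fit without the filter it was at 2.03 (adjusted p = 2.17e-10). The falls were *Itih2* (log2 fold change -1.02, adjusted p = 1.17e-06), *Serpina1d* (-0.52, adjusted p = 0.0127) and *Itih1* (-0.26, adjusted p = 0.0362), all genes of secreted protease inhibitors or their partners. Against the 5 wildtype libraries ending in R, *Serpina1d* was at -0.13 (adjusted p = 0.521) and *Itih1* at -0.14 (adjusted p = 0.303). Liver-made proteins such as *Crp*, *Orm1* and *Hpx* were below the filter. In the unfiltered edgeR fit *Orm1*, with a median of 1.76 CPM in wildtype and 0.454 CPM in PKD kidneys, was called lower (log2 fold change -1.8 ± 0.53, adjusted p = 0.0103). *Orm3* (-2.18, adjusted p = 0.0029) and *Apcs* (-1.11, adjusted p = 0.0118), also below the filter, were called lower in that fit too. *Hpx* (adjusted p = 0.0593) and *Crp* were not called there.

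Of 37 genes of coagulation and fibrinolysis, 27 were tested, 18 rose and 3 fell (23.4% and 24.6% of all genes), with a median log2 fold change of 0.58, and 18 of the 21 calls were kept with the same sign against each wildtype set. For this list and those below, the share of all genes with calls kept in this way was not computed. *Itgam*, a chain of the leukocyte receptor for fibrinogen, rose by 2.25 and *F3*, the tissue factor that starts clotting, by 1.19. *Itgam* and *Itgb3*, another of the rises, had at most 1.4 and 1.65 CPM in wildtype kidneys. Both passed the filter mainly through the PKD groups, which favours rises in the count. In the edgeR fit without the filter *Itgam* was at 2.27 (adjusted p = 1.39e-10) and *Itgb3* at 0.6 (adjusted p = 0.00473). The anticoagulants *Serpinc1* (antithrombin) and *Proc* (protein C) fell, with log2 fold changes of -0.79 (adjusted p = 0.00552) and -0.67 (adjusted p = 3.29e-09), as did *Serpinf2*, an inhibitor of plasmin (-0.46, adjusted p = 0.000137). *Serpinc1* was at -0.52 (adjusted p = 0.0899) against the 3 wildtype libraries not ending in R.

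Of 39 other iron and copper genes, 30 were tested, 7 rose and 6 fell (median log2 fold change 0.12), a share of calls near the 48.0% of all genes, and 5 of these 13 calls were kept with the same sign against each wildtype set. *Steap1*, a relative of *Steap4*, had 1.45 to 3.59 CPM in wildtype and 3.46 to 7.07 CPM in PKD kidneys (log2 fold change 1.26 ± 0.16, adjusted p = 9.22e-08). *Slc11a1*, a metal transporter of macrophages, rose by 0.93 and haem oxygenase 1 (*Hmox1*) by 0.7, the latter at 0.47 (adjusted p = 0.159) against the 3 libraries. The ferritin heavy chain *Fth1* fell (log2 fold change -0.57, adjusted p = 2.11e-05). The copper genes *Commd1* (-1.29) and *Atox1* (-0.66) fell too, but were at -0.36 (adjusted p = 0.202) and -0.07 (adjusted p = 0.747) against those 3 libraries.

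Of 22 zinc genes, 16 were tested, 7 rose and 2 fell (median log2 fold change 0.24), also near the 48.0% called among all genes, and 2 of these 9 calls were kept against each wildtype set. The zinc importers *Slc39a6* and *Slc39a10* rose by 0.7 and 0.54, and *Slc30a7*, an exporter into the secretory pathway, by 0.53. Against the 3 wildtype libraries not ending in R, *Slc39a10* was at 0.22 (adjusted p = 0.0643) and *Slc30a7* at 0.05 (adjusted p = 0.798). The metal sensor *Mtf1* fell slightly (log2 fold change -0.19, adjusted p = 0.0243), but was at -0.05 (adjusted p = 0.691) against the 3 libraries. *Slc30a9*, another zinc transporter, fell by 0.22 on the log2 scale (adjusted p = 0.000254), but was at -0.13 (adjusted p = 0.0887) against them. Between PKD + Salsalate and PKD kidneys, 0 of the 105 genes tested in the 5 lists were called by edgeR. Of the 105, 10 had an unadjusted p under 0.05, a share near that of all genes (1316 of 13948). The gene nearest to a call was *Lif*, with 1.45, 3.39 and 5.91 CPM in the lowest, median and highest PKD + Salsalate kidneys and 2.86, 4.99 and 8.43 CPM in PKD kidneys. The groups overlapped, and the log2 fold change was -0.75 (adjusted p = 0.0758, edgeR). *Lif* was the 1 listed gene that DESeq2 (-0.74, adjusted p = 0.046) and limma-voom (-0.82, adjusted p = 0.0333) called, as did edgeR without PKD replicate 3 (-0.8, adjusted p = 0.0486) or without PKD + Salsalate replicate 11 (-0.87, adjusted p = 0.0147). It was singled out after its values were seen.

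Markers of other cell states moved with the PKD groups. All 7 injured tubule markers rose in PKD, and their sum was 514 to 905 CPM in wildtype, 1730 to 3300 CPM in PKD and 1470 to 4220 CPM in PKD + Salsalate kidneys, with no marker at 0. Among them *Havcr1*, *Krt20* and *Sox9* were low in wildtype kidneys, with at most 1.78, 0.889 and 1.27 CPM. They passed the filter mainly through the PKD groups, which favours a rise. The 10 leukocyte markers summed to 104 to 156 CPM in wildtype and 230 to 336 CPM in PKD kidneys, where all 5 markers tested rose. The 6 red cell markers summed to 245 to 807 CPM in wildtype and 44.9 to 165 CPM in PKD kidneys, where all 5 tested fell. The liver markers summed to 60.1 to 175 CPM in wildtype and 54.7 to 87.6 CPM in PKD kidneys, where all 6 tested fell and 6 of the 15 were at 0 in some kidney. Among all 13948 genes, 23.4% rose and 24.6% fell. For the markers, calls against each wildtype set are not given. In these whole-kidney samples, fewer cells of a type and less RNA per cell cannot be told apart. The part of the injured tubule, leukocyte and red cell signal in the results above was not tested.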

How the data were processed

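Poly(A) RNA of 32 mouse kidneys was sequenced from stranded libraries. The authors demultiplexed with bcl2fastq 2.20, trimmed with cutadapt 2.10, aligned to GRCm39 with STAR 2.7.5a and deposited raw read counts per gene from strand-aware counting with HTSeq 0.12.4. The 5 rows that name no gene (16.9% to 26.4% of alignments per library) were left out. Between 11193136 and 109807664 reads per kidney remained, and floors from them cover counting error only. The confidence intervals of the fold changes come from the edgeR fit and include the spread between kidneys.

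Counts were fitted with edgeR 4.0.16 (R 4.3.3) by the quasi-likelihood test with TMM scaling, after a filter of log2 CPM over 1 in at least 8 of 31 kidneys. The filter counted kidneys of all groups, so genes low in wildtype, such as *Fgb*, *Lif*, *Serpina3n* and *Itgam*, passed it mainly through the PKD groups. All 3 groups were fitted together without PKD replicate 10, with Benjamini-Hochberg adjustment and a threshold of 0.05. The edgeR p-values measure the spread between kidneys, with 1 library each. In wildtype this spread includes the difference between the 2 library sets, and the PKD mice had been selected for mild cysts. CPM values were TMM-scaled. Gene positions came from GENCODE, which held 52610 of the 53700 gene IDs, and transcript lengths were those of canonical transcripts. Permutation tests were run in R and in numpy 2.4.6, with 100000 permutations where not exact, and ranks for Spearman rho came from scipy 1.17.1.

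The members and gene lists were chosen with earlier results of these data known. All 9 members were named, with the 3 largest rises and 3 largest falls called between PKD and wildtype in each pathway list, any listed gene called between the PKD groups, and the 2 genes most like each member. One gene that this rule names is not reported here. Other genes named, all low or markers, and the motifs were chosen after values or sequences were seen. On data simulated for PKD against wildtype (13817 genes), the fit recovered 183 of 200 genes changed by 2-fold, with 12 false calls. Alternatives were DESeq2 1.42.0, limma-voom (limma 3.58.1), other scaling, no filter, other sample sets, a replicate block and each kidney left out in turn.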

Additional observations from a re-analysis of the deposited data

Results flagged for a closer look

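Among 17 wildtype measures checked for a kidney far from the other 7, 2 passed the 95% limit of Dixon's test, where chance gives about 1 in 20. *Fgb* was at 3.03 CPM in wildtype replicate 1, and the summed adipose tissue markers were at 417 CPM in wildtype replicate 2.

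PKD replicate 10, outside the comparisons, had higher levels than any other kidney for most acute-phase genes when all 32 kidneys were scaled together. It had 227 CPM of *Fga* (10.1 to 28.1 in the other PKD kidneys), 282 CPM of *Fgb* (1.15 to 3.58) and 251 CPM of *Fgg* (8.75 to 27.7). *Hp* was at 676 CPM (2.76 to 29.2), *Saa3* at 0.867 CPM (0 to 0.279) and *Steap4* at 13.7 CPM (1.02 to 6.68). *Cp* was at 127 CPM (66.4 to 96.1 in the other PKD kidneys), above them but below PKD + Salsalate replicate 11. *Mt1* (67.9 CPM) and *Mt2* (45.7 CPM) lay inside the range of the other PKD kidneys.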

How the results depend on the processing

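The calls of *Fga*, *Fgb*, *Fgg*, *Cp*, *Steap4* and *Mt1* between PKD and wildtype held with each of the 31 kidneys left out. *Steap4* between PKD + Salsalate and wildtype passed the threshold by DESeq2 (adjusted p = 0.0483), by limma-voom (0.0382), with only these groups fitted (0.0323), and without wildtype replicate 2 (adjusted p = 0.0331), wildtype replicate 6 (0.0242), PKD replicate 4 (0.0455), PKD replicate 12 (0.0327) or PKD + Salsalate replicate 12 (0.0407, edgeR). Depth limits *Saa3* and, in wildtype kidneys, *Fgb*. Wildtype age cannot be told apart from genotype, and only 3 wildtype libraries share the naming of the PKD libraries. The cause of the changes below was not tested.

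Against the 3 wildtype libraries not ending in R, 3 members were called for PKD and 3 for PKD + Salsalate, *Mt1* was at 0.14 and 0.16, and *Mt2* for PKD + Salsalate at 0.42. Against the 5 others, *Mt2* for PKD was at -0.09. With PKD replicate 10 included, 3 members were called for PKD + Salsalate against wildtype, with or without the filter. *Hp* for PKD against wildtype was then 2.67 in both, and between the PKD groups *Fgb* was -3.21 (-3.19 unfiltered) and *Hp* -2.72 (-2.7 unfiltered). By limma-voom, *Fgb* between the PKD groups was -0.01 and *Mt2* for PKD + Salsalate against wildtype 0.04. The latter was 0.02 with upper-quartile scaling, without the filter, and without the filter over all 32 kidneys.

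With 1 kidney left out, log2 fold changes between the PKD groups ran from -0.19 to 0.05 for *Fga*, -0.04 to 0.2 for *Fgb*, -0.28 to 0.02 for *Fgg* and -0.05 to 0.06 for *Mt1*. For PKD + Salsalate against wildtype they ran from -0.15 to 0.24 for *Hp* and -0.1 to 0.13 for *Mt2*, and for PKD against wildtype *Hp* ran from -0.54 (without PKD replicate 12) to 0.1 (without wildtype replicate 2).

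Over all genes, the 72 calls between the PKD groups became 175 by DESeq2, 128 by limma-voom, 37 without the filter, 168 with only these groups fitted, 122 and 221 with the wildtype libraries ending and not ending in R, and 120 unfiltered over all 32 kidneys. They ran from 35 (without PKD + Salsalate replicate 5) to 189 (without PKD + Salsalate replicate 11) with 1 kidney left out. Counts 1.5 times lower or more also came without PKD replicates 1 (39), 2 (47), 5 (38), 9 (39) or 11 (47), or PKD + Salsalate replicates 1 (39), 6 (40) or 12 (45).

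Replicate numbers did not pair the kidneys: same-numbered kidneys had r from -0.56 to 0.48, over 0.1 in 2 of 11, 3 of 8 and 3 of 8 pairs. With the replicate block, 33 genes were called between the PKD groups, *Mt1* there was at -0.01, and *Hp* for PKD + Salsalate against wildtype at 0.17.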

Other observations

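*Mt3*, a metallothionein known mainly from brain, was below the filter on low counts. It had 0.409, 1.2 and 3.13 CPM in the lowest, median and highest wildtype kidneys, 0.154, 0.4 and 0.625 CPM in PKD kidneys and 0.205, 0.498 and 0.862 CPM in PKD + Salsalate kidneys. In the edgeR fit without the filter it was lower in PKD than in wildtype kidneys (log2 fold change -1.63 ± 0.32, adjusted p = 0.000131). Between the PKD groups its log2 fold change was 0.32 (adjusted p = 0.785). *Saa1* and *Il6* gave 32 and 42 counts in the 12 PKD + Salsalate kidneys, where the 11 PKD kidneys gave 58 and 68 (adjusted p = 0.56 and 0.608 in that fit).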
